A study of Mus musculus with 4 samples.

Results

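The genes described here are 34 regulators and executioners of apoptosis, chosen by name as BCL2 family proteins, caspases, inhibitors of apoptosis and their partners, out of 18804 genes in the deposited expression table. They were read in 4 RNA-seq libraries of group 1 innate lymphoid cells (ILC1s) from the liver of mice aged 5 to 8 weeks, at homeostasis. ILC1s are tissue-resident lymphocytes related to natural killer (NK) cells. Of the libraries, 2 came from mice labelled Cd200r knockout (replicates 1 and 2) and 2 from mice labelled WT (replicates 1 and 3). Cd200r encodes an inhibitory receptor of the immunoglobulin superfamily. Whether a library is 1 mouse or a pool is not stated, so the p-values below reflect library-to-library spread only, part of which may be technical. For each gene that spread was estimated partly from other genes of similar level. The sources used here do not give the deleted exons, the strain or the sorting gate.

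Apoptosis is set by a balance inside the BCL2 family. Pro-survival members such as BCL2, BCL-XL, MCL1 and A1 hold the pore-forming effectors BAX and BAK in check, and BH3-only proteins displace them. Once the outer mitochondrial membrane is permeable, cytochrome c binds APAF1 and activates caspase 9, and death receptors such as FAS activate caspase 8 directly. Lymphocytes of this lineage depend on survival cytokines that act largely through BCL2 and MCL1.

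BH3-only proteins carry a BH3 domain and lack the other BCL2 homology domains. The core of that domain is shown for 5 of the 6 genes because it is the stretch through which their products bind the pro-survival proteins. Other BCL2 family members carry BH3 domains too, and the search was not run on them. Each stretch has 36 bases, read 5′ to 3′ on the coding strand from GENCODE release M21 (GRCm38, the assembly of mm10). Capitals mark the codons of the leucine and the aspartate that BH3 domains conserve. The search took a leucine, 2 residues of any kind, isoleucine or methionine, then glycine, alanine or serine, and the aspartate. It found 1 match in each coding sequence.
Bcl2l11: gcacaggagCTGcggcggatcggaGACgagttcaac
Bad: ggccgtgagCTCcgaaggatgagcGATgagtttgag
Bid: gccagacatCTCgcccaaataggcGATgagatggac
Bmf: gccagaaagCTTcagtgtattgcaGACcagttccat
Bbc3: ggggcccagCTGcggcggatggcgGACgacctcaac
All 5 lie within a coding exon. Bcl2l11 (BIM) has its stretch at chr2:128147141-128147176 in exon 3 on the plus strand, and Bad at chr19:6950783-6950818 in exon 3 on the plus strand. That of Bid is at chr6:120897289-120897324 in exon 4 on the minus strand, and that of Bmf at chr2:118545100-118545135 in exon 4 on the minus strand. Bbc3 (PUMA) has it at chr7:16313764-16313799 in exon 3 on the plus strand. Pmaip1 (NOXA) is the sixth BH3-only gene, and the search was not run on it.

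A second pair of sequences bears on how far the A1 genes can be measured apart. Bcl2a1b and Bcl2a1d are near-identical copies on chromosome 9. Their coding sequences have 519 bases each, differ at 6 positions (98.8% identity) and share an identical run of 217 bases. The first 90 coding bases are shown, in exon 1 of each gene, with the 2 differing bases in capitals.
Bcl2a1b: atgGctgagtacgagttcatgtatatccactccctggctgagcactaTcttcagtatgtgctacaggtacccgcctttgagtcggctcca
Bcl2a1d: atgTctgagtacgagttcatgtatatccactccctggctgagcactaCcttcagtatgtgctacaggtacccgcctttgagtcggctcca
These bases lie at chr9:89199360-89199449 on the plus strand for Bcl2a1b and at chr9:88731630-88731719 on the minus strand for Bcl2a1d. A read that lies within an identical run cannot be assigned to 1 copy from its sequence. The sources used here do not say how reads that fit both were treated, so the split between the copies is uncertain. Another copy, Bcl2a1a, was listed at only 1.24 to 1.92 FPKM.

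Values are FPKM (fragment counts divided by gene length and by the library's total), a level per length. The length worked out for Mcl1 from its values, 8725 bases, is longer than its RefSeq span at chr3:95656944-95663179. What the lengths cover is not known, so levels of different genes compare only roughly. The 4 libraries were of similar depth, from 38972600 to 41164777 counted reads. The 11 listed markers that define NK cells and ILC1s had means over the 4 libraries from 18.7 to 6484 FPKM. Tbx21 (T-bet) lay at 253 to 263. Ncr1 (the receptor NKp46) was lower in knockout without overlap, at 1486 and 1505 FPKM against 1653 and 1748 in WT. Itga1 was also lower without overlap, at 42.2 and 32.8 FPKM against 48.3 and 52.95 (log2 fold change −0.43, limma adjusted p = 0.138). Of the 11 markers 8 had a negative log2 fold change and 3 a positive one, and only Cd200r1 passed the test. Cd200r1 stood at 110.7 and 103.7 FPKM in knockout against 161.5 and 173.3 in WT (log2 fold change −0.64, limma adjusted p = 0.00451), so its transcript fell and was not absent. Whether the counted reads come from the deleted exons is not known. Markers of other cells moved with genotype in the same libraries. Summed macrophage markers were at 641 and 955 FPKM in knockout against 246 and 226 in WT. Summed erythroid and platelet markers, mostly haemoglobin, were at 12745 and 14306 against 24905 and 27027. Of 9 genes tested in that list 7 fell and 1, Car2, rose. The platelet genes did not follow the sum: Pf4 did not pass, at 0.934 and 4.14 FPKM in knockout against 1.95 and 0.296 in WT. Ppbp was under the filter, with overlap. Hepatocyte, T cell, B cell, neutrophil and endothelial lists had 9, 8, 4, 4 and 1 members tested, of which 2, 1, 0, 2 and 0 rose and 0 fell. Over all genes tested, 2.40% rose and 0.939% fell. Both neutrophil genes that rose, Camp and Ngp, passed the filter only through their knockout level, and 3 more of that list were not tested. In RNA from many cells, fewer cells of a type and less RNA per cell cannot be told apart.

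The apoptosis genes differed little between the genotypes, with 1 exception that depends on the expression filter. Pmaip1, encoding the BH3-only protein NOXA, was higher in knockout. It met the filter given below only through its knockout level and did not pass the test without a filter. The other 30 genes tested did not pass, including every pro-survival gene, the effector Bax and the 4 caspases. The test was limma's linear model on log2(FPKM + 1) over the 9476 genes whose mean reached 1 FPKM, and a gene passed at a Benjamini-Hochberg adjusted p under 0.05. Among all genes tested 3.33% passed, 2.40% higher and 0.939% lower in knockout, and 1 of the 31 apoptosis genes tested is 3.23%, a share near that background. Bmf, Bak1 and Xiap were under the filter and are given by value only. The median log2 fold change (knockout minus WT, as for all below) was 0.06 over the 31 genes and 0.00 over all genes tested. For 29 of the 31 genes the 95% interval of the difference lay between −1 and 1. The median size of the change, regardless of sign, was 0.14 for the apoptosis genes and 0.16 for all genes.

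**Figure D1:**
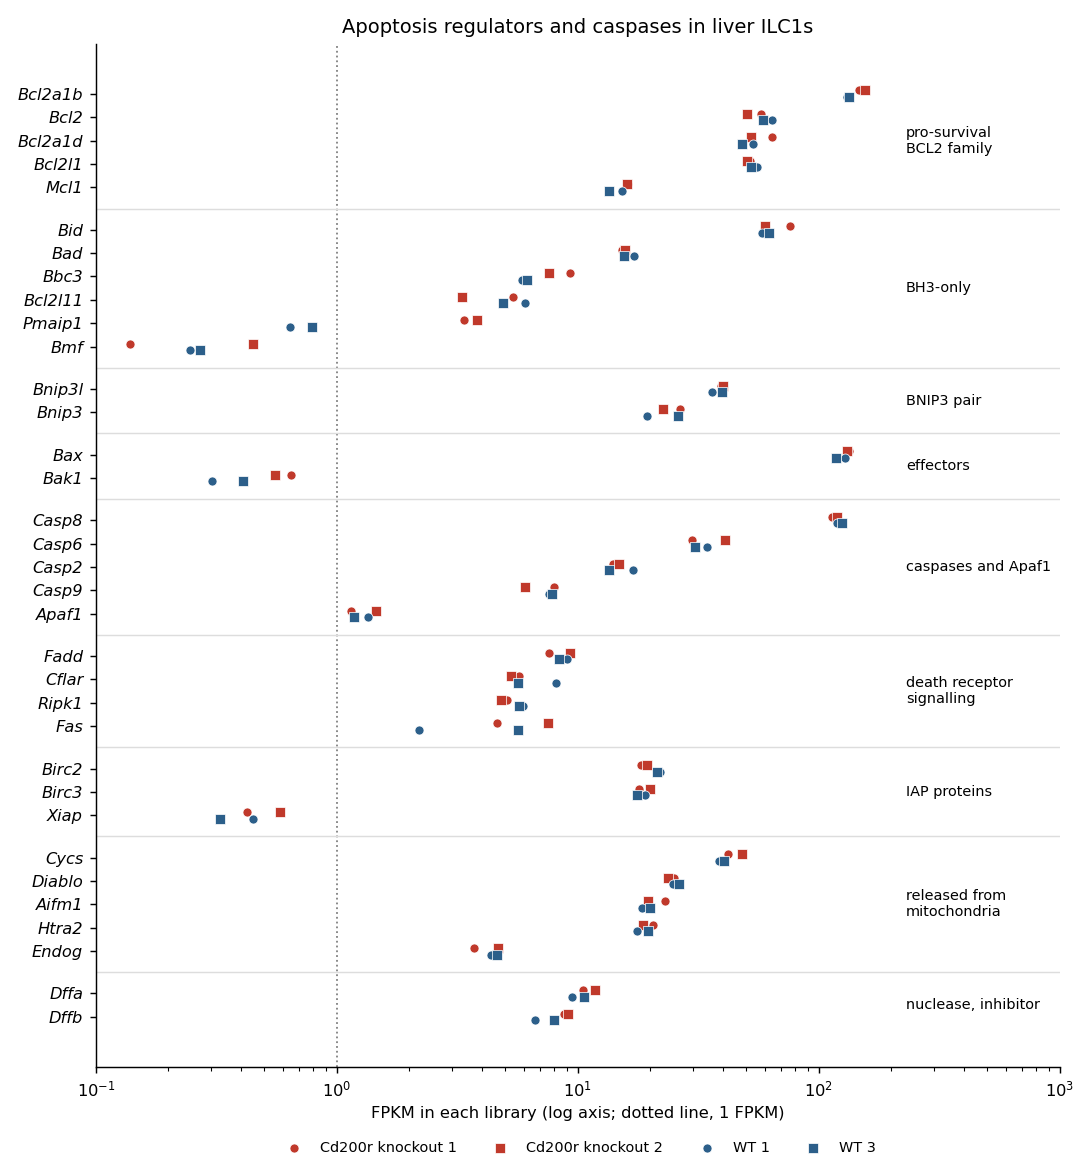
FPKM of the 34 apoptosis genes in each library on a log axis, grouped by role; red, Cd200r knockout replicates 1 (circle) and 2 (square); blue, WT replicates 1 (circle) and 3 (square). Levels ran from 0.28 FPKM for Bmf to 142 for Bcl2a1b as means over the 4 libraries, and the knockout and WT points of Pmaip1 stand apart while those of most other genes lie together.

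Pmaip1 (Entrez 58801) stood at 3.38 and 3.84 FPKM in knockout against 0.642 and 0.793 in WT. Both knockout libraries were above both WT libraries, and the 2 libraries within each group were close. NOXA binds mainly MCL1 and A1 and promotes the degradation of MCL1. The group means, 3.61 ± 0.324 and 0.717 ± 0.107 FPKM (SD, n = 2), differed 5.03-fold. The log2 fold change of FPKM + 1 was 1.42 (SE 0.22, 95% interval 0.94 to 1.91, limma adjusted p = 0.00577). These values rest on 369 and 402 reads in knockout and 67 and 82 in WT, recovered as whole numbers from the deposited FPKM. Its WT level lies under the filter of 1 FPKM, so Pmaip1 was tested only because of its knockout level, and its place among the genes tested supports no statement about the group. Without a filter it did not pass (adjusted p = 0.302), nor did any gene of the table.

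Other markers rose in the same libraries as Pmaip1. Their lists were chosen with earlier results of these data known, so the counts below are no independent result. Over all genes tested, 2.40% rose. Of 10 macrophage markers tested 7 rose, 1 of them (Adgre1) with a WT mean under the filter. The Kupffer cell markers Clec4f, Vsig4 and Cd5l did not pass and overlapped between the groups, with Clec4f at 3.72 and 12.4 FPKM in knockout against 2.04 and 4.37 in WT and Cd5l at 2.015 and 4.20 against 2.38 and 3.92. Under the filter, Timd4 was at 0.234 and 1.93 FPKM against 0 and 0.101, Marco at 0.328 and 0.158 against 0.554 and 0.360, and Cd163 between 0 and 0.242. Of 12 conventional NK markers tested 9 rose, 2 of them (Eomes and Cx3cr1) with a WT mean under the filter, with summed levels of 790 and 1265 FPKM against 520 and 504. Itga2, Klra9 and Irf8 did not pass. Itga2 overlapped, at 1.75 and 1.40 FPKM in knockout against 1.31 and 1.53 in WT, while Klra9 and Irf8 were higher without overlap. Of 17 cell cycle genes tested 9 rose, with summed levels of 422 and 411 FPKM against 250 and 255. Their part in the Pmaip1 difference was not tested.

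Among the other BH3-only genes, Bbc3 had the next smallest p. It encodes PUMA, which binds all pro-survival members and is induced by p53 and by growth factor loss. Bbc3 measured 9.30 and 7.63 FPKM in knockout and 5.88 and 6.18 in WT. The groups did not overlap, and the means differed 1.40-fold, but the gene did not pass (log2 fold change 0.42, SE 0.18, 95% interval 0.02 to 0.83, limma adjusted p = 0.300). Bid, which links caspase 8 to the mitochondria, was the most abundant BH3-only transcript. It measured 75.9 and 59.6 FPKM in knockout and 58.1 and 62.5 in WT, with overlapping groups (0.16, SE 0.13, adjusted p = 0.613). Bcl2l11, whose product BIM is the main killer of cytokine-deprived lymphocytes, measured 5.37 and 3.30 FPKM in knockout and 6.03 and 4.92 in WT. Its groups overlapped and its interval was wide (−0.30, 95% interval −0.82 to 0.22). Bad, which is held inactive by phosphorylation, lay between 15.3 and 17.2 FPKM in all libraries. Bmf, which responds to loss of attachment and of growth signals, was near the floor, at 0.139 and 0.448 FPKM in knockout and 0.245 and 0.271 in WT.

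As a share of the summed FPKM of the 6 BH3-only genes, Pmaip1 made up 3.09% and 4.23% in knockout and 0.728% and 0.878% in WT. It stayed a minor part of the group, since Bid alone made up 65.8% to 69.4%. The level of Mcl1 over that of Pmaip1 was 4.81 and 4.17 in knockout and 23.9 and 17.1 in WT. That ratio moved through its denominator, as the values of Mcl1 given next show.

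The pro-survival genes were well expressed and none passed. Bcl2a1b had the highest FPKM of the 34 genes, though Bcl2 drew more reads (14633 to 18553 per library against 3931 to 4683). Bcl2a1b measured 148 and 155 FPKM in knockout and 131 and 134 in WT. The groups did not overlap, and the change was small (0.19, SE 0.09, 95% interval −0.00 to 0.39, limma adjusted p = 0.335). Its copy Bcl2a1d measured 63.8 and 52.2 FPKM in knockout and 53.4 and 47.9 in WT, with overlapping groups. Bcl2 went the other way, at 57.8 and 50.4 FPKM in knockout and 64.2 and 58.8 in WT. It was lower in both knockout libraries, and the difference did not pass (−0.18, SE 0.11, 95% interval −0.43 to 0.07, adjusted p = 0.481). Bcl2l1 (BCL-XL) lay between 50.5 and 55.6 FPKM, lower in both knockout libraries by little (−0.08, SE 0.10). Mcl1 measured 16.2 and 16.0 FPKM in knockout and 15.3 and 13.5 in WT, without overlap (0.15, SE 0.15). Its FPKM was divided by a recovered gene length of 8725 bases, against 764 for Bcl2a1b, so a low level per length here still rests on 4607 to 5836 reads per library.

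Sums over the role groups were also set against each other. Summed FPKM of the 5 pro-survival genes over that of the 6 BH3-only genes was 3.08 and 3.58 in knockout and 3.62 and 3.40 in WT, with overlap. The pro-survival sum over that of the effectors Bax and Bak1 was 2.50 and 2.47 in knockout and 2.47 and 2.59 in WT, with overlap. For single genes, Bcl2 over Bax was 0.431 and 0.386 in knockout and 0.497 and 0.499 in WT, without overlap, and this ratio was not tested. Bax over Bak1 was 209 and 235 in knockout and 424 and 288 in WT, also without overlap and not tested, with Bak1 under the filter. Apart from these and Mcl1 over Pmaip1, the single-gene ratios that were read overlapped between the groups. These were Bcl2 over Bcl2l11, Bcl2l1 over Bad, Casp8 over Cflar and Bcl2a1b over Bcl2a1d. Leaving out the A1 copies, the sum of Bcl2, Bcl2l1 and Mcl1 was 126 and 117 FPKM in knockout and 135 and 125 in WT. The median log2 fold change was 0.15 for the 5 pro-survival genes and −0.08 for the 3 without the A1 copies, a change of sign. It was 0.16 for the 5 BH3-only genes tested and −0.06 for the caspases with Apaf1.

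Of the effectors, Bax carried nearly all of the signal. It measured 134 and 131 FPKM in knockout and 129 and 118 in WT (0.10, SE 0.09, 95% interval −0.10 to 0.31, limma adjusted p = 0.666). Bak1 was low, at 0.643 and 0.556 FPKM in knockout and 0.305 and 0.410 in WT, from 24 to 53 reads per library. The knockout libraries were higher in both genes without overlap, and Bak1 was under the filter. Bax was listed at 209 to 424 times the level of Bak1. Bnip3 and Bnip3l encode related mitochondrial proteins best known as receptors for mitophagy. Bnip3 measured 26.7 and 22.5 FPKM in knockout and 19.4 and 26.0 in WT (0.12, SE 0.16, adjusted p = 0.794). Bnip3l measured 39.2 and 40.1 FPKM in knockout and 36.1 and 39.8 in WT (0.06, SE 0.11, adjusted p = 0.854). Both overlapped between the groups.

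None of the 4 caspases or Apaf1 passed. Casp8, the initiator caspase of death receptors, was the most abundant, at 114 and 119 FPKM in knockout and 119.3 and 125 in WT. The groups were adjacent without overlap, and the interval of the difference was narrow (−0.07, 95% interval −0.27 to 0.13, limma adjusted p = 0.792). Casp9, the initiator caspase of the mitochondrial route, measured 7.98 and 6.03 FPKM in knockout and 7.63 and 7.83 in WT, with overlap (−0.14, SE 0.19, adjusted p = 0.801). Casp6, an executioner, ranged from 29.8 to 40.9 FPKM and Casp2, an initiator linked to cell division errors, from 13.5 to 16.9, both with overlap. Apaf1, the scaffold of the apoptosome, was low at 1.15 to 1.45 FPKM.

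**Figure D2:**
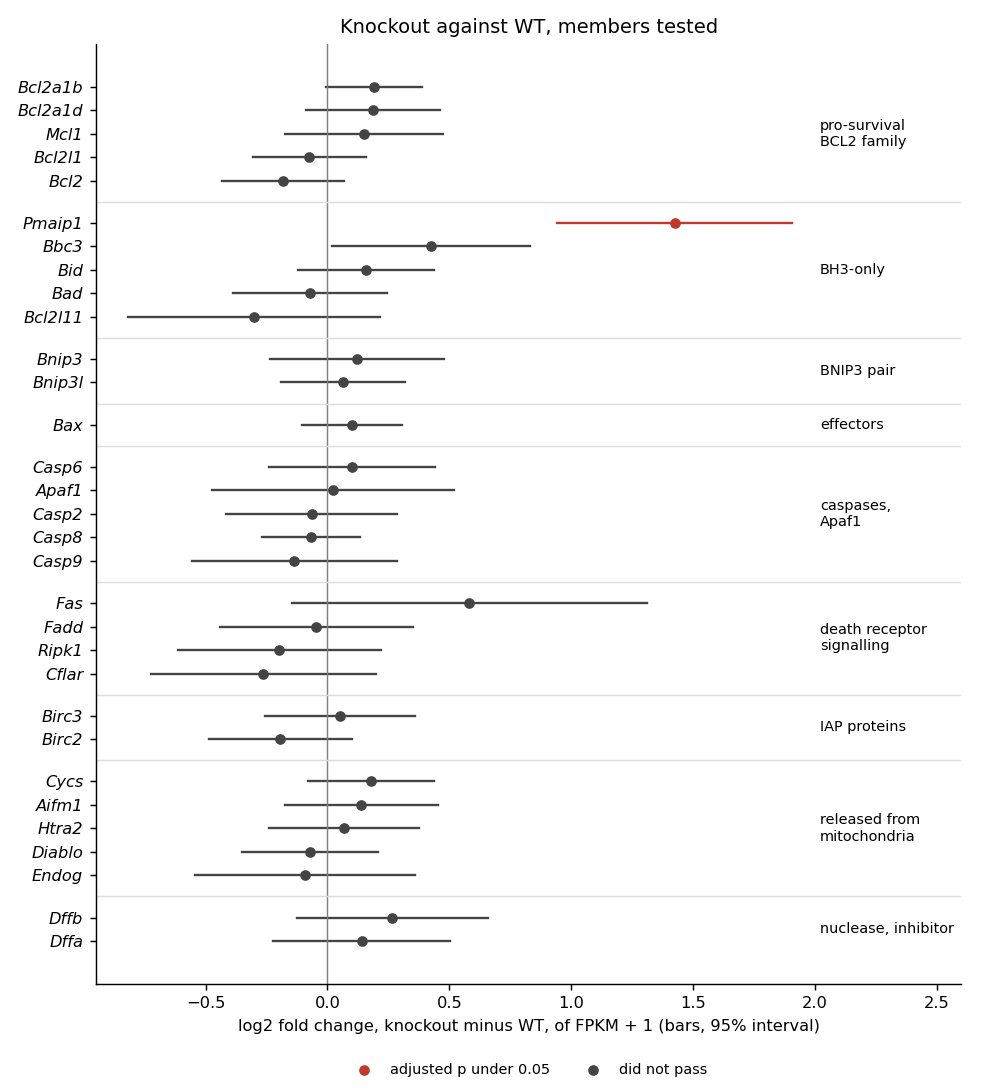
Log2 fold change (knockout minus WT, of FPKM + 1) of the 31 apoptosis genes tested, with 95% intervals from limma, grouped by role; red marks an adjusted p under 0.05 and grey a gene that did not pass. Pmaip1 sits at 1.42 with an interval from 0.94 to 1.91, and for 29 of the 31 genes the interval lies between −1 and 1.

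Of the 31 genes, Fas had the widest interval. Fas, the death receptor bound by FAS ligand, measured 4.61 and 7.53 FPKM in knockout and 2.20 and 5.68 in WT. The groups overlapped, and the difference did not pass (0.58, SE 0.33, 95% interval −0.15 to 1.31, limma adjusted p = 0.444). It was 0.052 without WT replicate 1 and 1.11 without WT replicate 3. Cflar, which encodes the caspase 8 inhibitor c-FLIP, measured 5.70 and 5.27 FPKM in knockout and 8.12 and 5.64 in WT (−0.26, SE 0.21), with overlap. Its WT replicate 1 was the highest of the 4, and without it the log2 fold change was −0.034. Fadd, the adaptor that recruits caspase 8, measured 7.59 and 9.31 FPKM in knockout and 9.07 and 8.36 in WT, with overlap (−0.05, SE 0.18). Ripk1, a kinase that steers death receptor signals to survival, apoptosis or necroptosis, measured 5.09 and 4.81 FPKM in knockout and 5.91 and 5.73 in WT without overlap (−0.20, SE 0.19). Fasl, the ligand through which cytotoxic lymphocytes kill FAS-bearing targets, lay between 373 and 405 FPKM in all libraries.

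Inhibitor of apoptosis (IAP) genes also did not pass. Birc2, encoding the ubiquitin ligase cIAP1, measured 18.3 and 19.4 FPKM in knockout and 22.0 and 21.4 in WT. It was lower in both knockout libraries (−0.19, SE 0.13, 95% interval −0.49 to 0.10, limma adjusted p = 0.536). Birc3 (cIAP2) measured 17.96 and 19.98 FPKM in knockout and 18.98 and 17.56 in WT, with overlap (0.05, SE 0.14). Xiap, which encodes a direct inhibitor of caspases, was listed at 0.326 to 0.581 FPKM over a recovered length of 27375 bases, from 348 to 628 reads per library.

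Proteins that leave the mitochondria gave small differences. Cycs, encoding cytochrome c, measured 41.9 and 47.9 FPKM in knockout and 38.6 and 40.4 in WT without overlap (0.18, SE 0.12, limma adjusted p = 0.514). Aifm1, encoding the flavoprotein AIF, measured 23.1 and 19.6 FPKM in knockout and 18.5 and 19.9 in WT, with overlap (0.14, SE 0.14). Diablo (SMAC) and Htra2, both antagonists of IAP proteins, and the nuclease Endog overlapped, with log2 fold changes of −0.07, 0.07 and −0.09. Dffb encodes the nuclease that cuts DNA between nucleosomes, and Dffa its chaperone and inhibitor. Dffb measured 8.75 and 9.14 FPKM in knockout and 6.63 and 7.95 in WT without overlap (0.27, SE 0.18, adjusted p = 0.525), and Dffa 10.5 and 11.8 FPKM in knockout and 9.47 and 10.6 in WT, with overlap (0.14, SE 0.16).

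Counting direction alone, 18 of the 31 genes tested had a positive log2 fold change (58.1%) against 50.5% of all genes tested. The groups did not overlap in 12 of the 31, which is 38.7% against 46.0% of all genes tested. Of the 12, 7 were higher and 5 lower in knockout, where 24.3% and 21.7% of all genes tested were. At an unadjusted p under 0.05 there were 2 of 31, Pmaip1 and Bbc3, which is 6.45% against 15.5% of all genes tested. These shares include Pmaip1, and their difference from all genes was not tested.

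Other cell death genes were read from a wider list. Among all genes tested 2.40% rose and 0.939% fell. Of 50 listed genes 47 were in the table and 38 were tested. Of these 1 rose, 0 fell and 37 did not pass, with a median log2 fold change of 0.02. The 1 that rose was Birc5, which encodes survivin, an IAP family protein that acts mainly in mitosis. Birc5 measured 4.45 and 6.08 FPKM in knockout and 1.03 and 1.74 in WT (1.40, SE 0.24, limma adjusted p = 0.0105), and it is also one of the cell cycle genes counted above.

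Pmaip1 and Bbc3 are both textbook targets of p53, so a list of p53 and its targets was read beside them. Of 16 listed genes 15 were in the table and 11 were tested. Of these 2 rose and 0 fell, where 2.40% and 0.939% of all genes tested did. Their median was 0.00. Cdkn1a, encoding the cell cycle inhibitor p21, measured 6.44 and 6.55 FPKM in knockout and 2.21 and 1.41 in WT (1.43, SE 0.22, limma adjusted p = 0.00577). Phlda3, encoding an inhibitor of Akt signalling, measured 2.12 and 2.71 FPKM in knockout and 0.433 and 0.227 in WT (1.36, SE 0.23, adjusted p = 0.0103), and like Pmaip1 passed the filter only through its knockout level. The other 9 did not pass. Among them, Trp53 itself lay between 115 and 130 FPKM (0.00, SE 0.10), with overlap between the groups. Mdm2, encoding the p53 ubiquitin ligase, lay between 14.2 and 17.2, and the stress-response gene Sesn1 between 74.3 and 92.0, both with overlap. Aen was higher and Trp53inp1 lower in knockout without overlap (0.24 and −0.26). Under the filter, Zmat3 was higher and Perp lower in knockout, also without overlap.

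**Figure D3:**
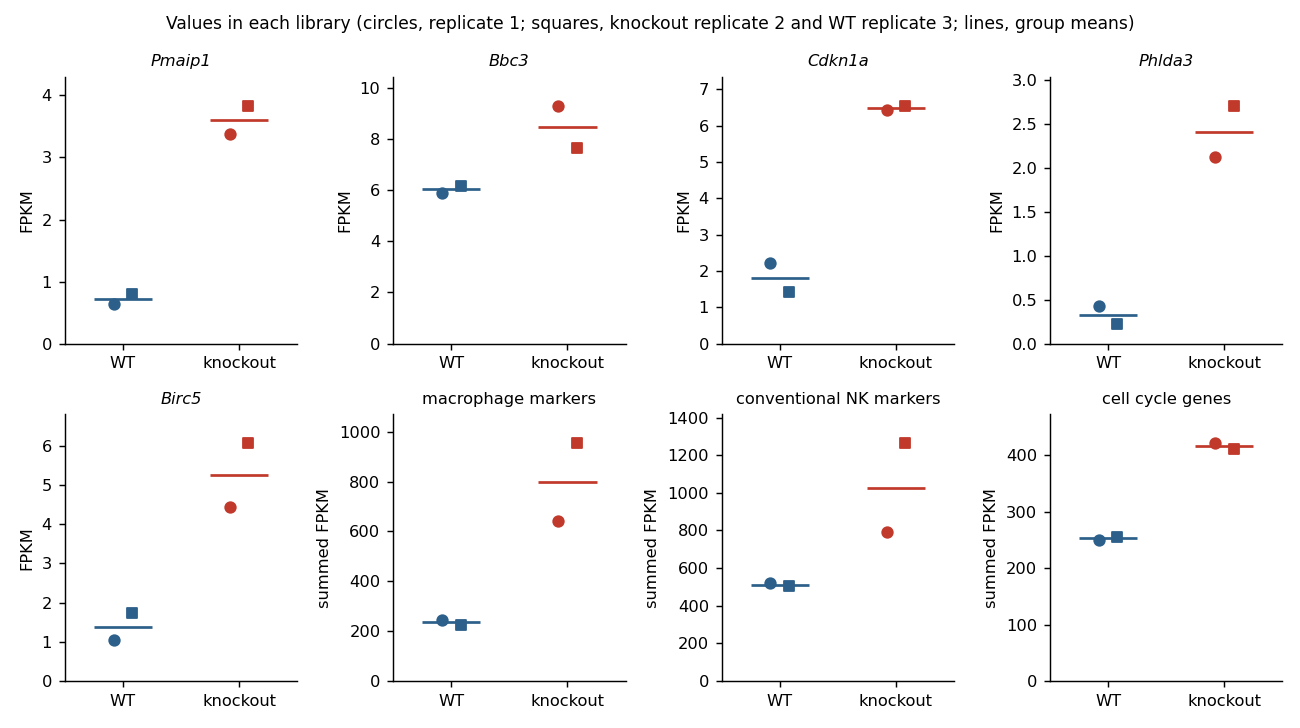
FPKM of Pmaip1, Bbc3, Cdkn1a, Phlda3 and Birc5, and summed FPKM of the macrophage, conventional NK and cell cycle lists, in each library; circles are replicate 1 of each group, squares knockout replicate 2 and WT replicate 3, and lines group means. All 8 panels have both knockout libraries above both WT libraries. The panels were chosen with earlier results of these data known, so this count is no separate result. Of all genes tested, 24.3% were higher in knockout without overlap.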

How the data were processed

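The build mm10 and R 3.2.0, DESeq2, HTSeq, HISAT2 and fastp are named, per the submitters' processing notes, without their roles. The authors deposited FPKM per gene for 4 libraries of full-length amplified cDNA, with no scaling between libraries stated. Depth was worked out from the FPKM values. With 1 total per library and 1 whole length per gene, 18145 of 18155 genes above 0 (99.9%) gave reads within 0.001 of a whole number in all 4 libraries. A length can be too small by a factor that its reads share. These reads summed to 97.6% of each total. The variance between replicates was 41.4 (knockout) and 25.7 (WT) times that of counting noise, so all 4 were kept as separate libraries. These are chi-square values per degree of freedom, summed over genes with at least 20 reads in the pair. Counting error covers only part of the spread.

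Log2(FPKM + 1) was fitted with limma 3.58.1 with a mean-variance trend (R 4.3.3), two-sided, with no covariate, over genes whose mean reached 1 FPKM. An exact permutation of 2 against 2 cannot give a p below 0.333. The test on the FPKM scale stayed the main one, and limma-voom on the recovered reads was added after seeing the data. The genes and lists were chosen with earlier results of these data known. Values are given in every library for genes past the test and, in each of 9 role groups, for the 2 smallest p and the highest mean, and for other members where it served the account. All 34 members matched RefSeq (GRCm38.p6) by Entrez identifier. Coding sequences are the longest complete ones of GENCODE. Some genes of the wider cell death list are counted but not reported here by name.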

Additional observations from a re-analysis of the deposited data

How the results depend on the processing

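Pmaip1 was tested in 12 of 13 alternatives, with a log2 fold change from 0.59 (pseudocount of 5) to 2.33 (limma-voom on recovered reads) and limma adjusted p from 0.0063 to 0.302. It passed in 11 and lost its call with no filter, at an unchanged 1.42. The count of apoptosis genes past the test was 0 with no filter and 0 with a minimum mean of 5 FPKM, which leaves Pmaip1 out (3 and 1 members at an unadjusted p under 0.05), and 1 in the other 11. Over all genes, 316 passed. With no filter 0 did (1898 at an unadjusted p under 0.05), without the mean-variance trend 70, and from 217 (without knockout replicate 2) to 553 (without knockout replicate 1) as single libraries were left out. Of 399 recomputed member values 14 changed sign, all when 1 library was left out and none of a gene that passed. These ranges were −0.015 to 0.33 for Bid, −0.18 to 0.086 for Fadd, −0.23 to 0.045 for Endog, −0.12 to 0.32 for Casp6, −0.31 to 0.040 for Casp9 and −0.072 to 0.12 for Apaf1. They were −0.023 to 0.12 for Birc3, −0.082 to 0.32 for Bnip3, −0.0055 to 0.13 for Bnip3l, −0.22 to 0.086 for Casp2 and −0.0010 to 0.14 for Htra2. For the other changes of value the cause was not tested. No paired analysis was possible because the groups share only replicate number 1. With 1 library left in a group, that library is assumed to vary like the others.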

Other observations

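Genes outside the named-gene rule were read in the list of other cell death genes, and those given here were chosen after their values were seen. None passed the test. The mitochondrial porin genes Vdac1, Vdac2 and Vdac3 had log2 fold changes of 0.05, 0.23 and 0.32. Vdac3 measured 97.8 and 102 FPKM in knockout and 79.5 and 80.4 in WT (SE 0.09, limma adjusted p = 0.112). Gsdmd, which encodes the pore-forming protein of pyroptosis, measured 60.2 and 56.7 FPKM in knockout and 75.9 and 70.5 in WT (−0.32, SE 0.10, adjusted p = 0.149). Ripk3, the kinase of necroptosis, lay between 57.3 and 67.2 FPKM with overlap, and Mlkl, its pore-forming substrate, between 2.27 and 3.26.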
